A study of Mus musculus with 23 samples.

Results

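The 7 genes described here encode chemokine receptors: Cx3cr1, Ccr1, Ccr2, Ccr7, Ccrl2, Cxcr2 and Cxcr4. They were taken by name, as the rows of the gene count table whose Ensembl identifiers map to these symbols, and all 7 were found among 47729 gene entries. All 7 also passed the filter on low counts, which left 16260 genes for testing. Cx3cr1 has a special place, since its protein was part of the gate used to sort every library.

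Chemokine receptors are membrane proteins that guide leukocytes along gradients of small secreted proteins, the chemokines, mostly through inhibitory G proteins. Cx3cr1 binds the membrane-tethered chemokine fractalkine, Ccr1 and Ccr2 bind inflammatory CC chemokines, and Ccr7 leads cells to lymph nodes. Cxcr2 is the main receptor of neutrophils for CXC chemokines such as Cxcl1 and Cxcl2, while Cxcr4 binds Cxcl12 and retains cells in bone marrow and tissue. Ccrl2 is an atypical receptor that holds the attractant chemerin on the cell surface and does not signal through G proteins. In monocytes, Ccr2 serves exit from the bone marrow, and a gain of Cx3cr1 with a loss of Ccr2 marks the patrolling subset.

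The cells came from wildtype C57BL/6J mice. Some carried a subcutaneous implant of a hydrogel made of poly(ethylene glycol), a water-swollen synthetic polymer, and the others carried none. As the design note of the series states, Cx3cr1-positive Ly6C-high cells are the monocytes and Cx3cr1-positive Ly6C-low cells the macrophages. Each cell type is labelled as taken from subcutaneous tissue, without implant (control) or with hydrogel at days 2, 14 and 28, which gives 8 groups of n = 3 biological replicates, with n = 2 for control macrophages. The labels give no age or sex, and no source used here says whether animals were pooled. Values are CPM, read counts relative to the size of the library, scaled by the trimmed mean of M values (TMM), and a gene was called at an adjusted p under 0.05 in the quasi-likelihood test of edgeR over all 16260 genes. Errors of log2 fold changes are standard errors, and all other errors are SDs over libraries.

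The 23 libraries held between 9303153 and 32994092 counts, with a median of 24722229, and 3 counts in 1 library correspond to between 0.0654 and 0.362 CPM. TMM factors ran from 1.239 to 1.406 in control libraries and from 0.727 to 1.042 in implant libraries, without overlap. The scaling therefore moved fold changes of implant against control upward, and unscaled library totals are among the alternatives below. The sort was visible in the mRNA: Ly6c2, which encodes a part of the Ly6C antigen, ran from 836 to 3586 CPM in monocyte libraries and from 5.49 to 236 CPM in macrophage libraries. The 9 macrophage markers summed to between 10369 and 21416 CPM in macrophages and to between 2983 and 8803 CPM in monocytes. Not every marker followed the sum. Fcgr1 was lower in macrophages at each implant day, with 371 to 661 against 709 to 842 CPM at day 2, and Csf1r and Cd68 overlapped at days 14 and 28. The 8 classical monocyte markers summed to between 2888 and 7549 CPM in macrophages and to between 5593 and 17973 CPM in monocytes. Of these, F13a1 was higher in control macrophages (2649 to 3877 CPM) than in control monocytes (1443 to 2327 CPM). The control monocyte libraries stood apart from the others in several markers. Ngp, Elane and Mpo, granule genes of developing myeloid cells, ran from 780 to 1394, from 29.8 to 55.6 and from 30.7 to 39.9 CPM there, and reached at most 18.5, 4.16 and 1.81 CPM in any other library. In the same 3 libraries C1qa, a complement gene of tissue macrophages, lay between 1.09 and 1.37 CPM, and the collagen gene Col1a1 was at 0. The labels give subcutaneous tissue for these 3 libraries as for all others, and the files do not settle whether the cells came from the same source. In every comparison with control monocytes, a difference of source and an effect of the implant therefore cannot be told apart. In bulk RNA of this kind, fewer cells of a type and less RNA per cell cannot be told apart.

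Promoter sequence is shown for the 4 receptors that changed most often against the controls, to set the results beside the DNA they come from. Each is the 300-base window from 250 bases before to 50 bases after the gene's start, from RefSeq on GRCm38.p6, written 5′ to 3′ on the strand of the gene. The windows are chr9:120068247-120068546 for Cx3cr1, chr9:123968643-123968942 for Ccr1, chr9:111057469-111057768 for Ccrl2 and chr1:128592250-128592549 for Cxcr4, all on the minus strand. Capitals mark matches to the motifs described after the sequences.
Cx3cr1: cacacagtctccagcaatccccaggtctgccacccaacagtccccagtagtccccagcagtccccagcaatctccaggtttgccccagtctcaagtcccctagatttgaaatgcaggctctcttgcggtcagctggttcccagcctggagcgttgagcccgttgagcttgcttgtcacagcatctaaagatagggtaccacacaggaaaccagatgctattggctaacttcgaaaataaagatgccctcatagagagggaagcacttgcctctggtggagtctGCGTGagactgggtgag
Ccr1: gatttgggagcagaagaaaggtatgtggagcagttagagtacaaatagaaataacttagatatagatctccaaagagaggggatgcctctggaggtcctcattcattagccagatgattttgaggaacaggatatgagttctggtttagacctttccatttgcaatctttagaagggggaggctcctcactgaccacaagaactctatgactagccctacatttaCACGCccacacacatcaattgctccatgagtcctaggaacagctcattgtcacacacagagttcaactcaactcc
Ccrl2: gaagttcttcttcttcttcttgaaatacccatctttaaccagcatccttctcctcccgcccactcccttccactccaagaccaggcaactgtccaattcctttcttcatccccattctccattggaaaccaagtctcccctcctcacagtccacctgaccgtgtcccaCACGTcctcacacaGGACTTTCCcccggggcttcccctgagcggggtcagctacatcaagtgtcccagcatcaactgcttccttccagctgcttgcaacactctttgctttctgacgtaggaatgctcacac
Cxcr4: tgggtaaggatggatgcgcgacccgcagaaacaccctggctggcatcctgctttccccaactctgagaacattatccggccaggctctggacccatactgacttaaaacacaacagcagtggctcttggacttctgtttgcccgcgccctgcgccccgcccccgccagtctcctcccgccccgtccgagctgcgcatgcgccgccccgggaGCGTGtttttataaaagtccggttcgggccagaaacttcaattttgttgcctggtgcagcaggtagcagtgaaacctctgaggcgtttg

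The motifs were searched on both strands of the 6 receptors with a promoter in the table: the PU.1 core GAGGAAG, the AP-1 site TGANTCA, the C/EBP site TTGCNNAA, an NF-kB site GGANTTTCC and the hypoxia response cores ACGTG and GCGTG. Both hypoxia cores share the letters CGTG and cannot start at the same base, and no matches overlapped in these windows. Among 32851 promoter windows of the same length, these letters occur in 13.6%, 7.81%, 10.8%, 1.25%, 19.6% and 32.4%, in that order. Ccrl2 was the single member with the NF-kB letters, which begin 68 bases before its start, and it also held ACGTG on the opposite strand, 82 bases before the start. GCGTG began 39 bases before the start of Cxcr4 and 33 bases after the start of Cx3cr1, and on the opposite strand 25 bases before the start of Ccr1. The windows of Ccr2 and Cxcr2 held none of the 6 motifs. The Cxcr4 window was the richest in CpG, with 20 CpG and 59.3% G and C, against a median of 7 CpG and 52.7% over all windows; the window of Ccr1 held 1 CpG and 44.0% G and C. A match is a run of letters and not a measured binding site.

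Ccr1, Ccr2, Cx3cr1 and Ccrl2 lie on chromosome 9 in the GENCODE M21 annotation of GRCm38, Cxcr2 and Cxcr4 on chromosome 1 and Ccr7 on chromosome 11. Ccr1 (ENSMUSG00000025804) occupies chr9:123962124-123968692 and Ccrl2 (ENSMUSG00000043953) chr9:111054486-111057519, both on the minus strand, and Ccr2 (ENSMUSG00000049103) chr9:124101950-124113557 on the plus strand. Cxcr2 (ENSMUSG00000026180) occupies chr1:74153989-74161246 on the plus strand, Cxcr4 (ENSMUSG00000045382) chr1:128588199-128592293 and Ccr7 (ENSMUSG00000037944) chr11:99144196-99155077, both on the minus strand. Reads of 75 bases can be shared between near copies: 78 of the 6734 windows of that length in Ccr2 (1.16%) and 55 of 3039 in Cxcr2 (1.81%) also occur outside the gene. For Ccr1, Ccr7, Ccrl2 and Cxcr4 no such window was shared. The annotated span of Cx3cr1 (ENSMUSG00000052336), chr9:119901616-120069879 on the minus strand, runs across other genes such as Wdr48 and Gorasp1, and 5 of its 4428 exon windows (0.113%) were shared. No source used here gives the strand setting of the counting, so reads where genes overlap cannot be assigned with certainty.

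Per kilobase of exon, the receptor make-up differed between controls and implant tissue. Ccr2 was the most abundant of the 7 in both control groups, with 53.0% of their summed CPM per kb in macrophages and 62.5% in monocytes. Ccr1 ranked first in all 6 implant groups, with between 34.6% and 48.6%. Cx3cr1 held 27.1% of the sum in control monocytes, 6.77% in control macrophages and between 1.24% and 6.32% in the implant groups, while Ccrl2 held 4.28% and 4.66% in the controls and between 17.2% and 29.3% with an implant. Ccr7 and Cxcr2 held at most 2.62% and 3.57% in any group. The order of Ccr1 and Ccr2 with an implant rests on the division by annotated exon length, 2833 bases for Ccr1 and 6760 for Ccr2. In CPM without this division, mean Ccr2 was above mean Ccr1 in every implant group except day 2 macrophages.

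**Figure D1:**
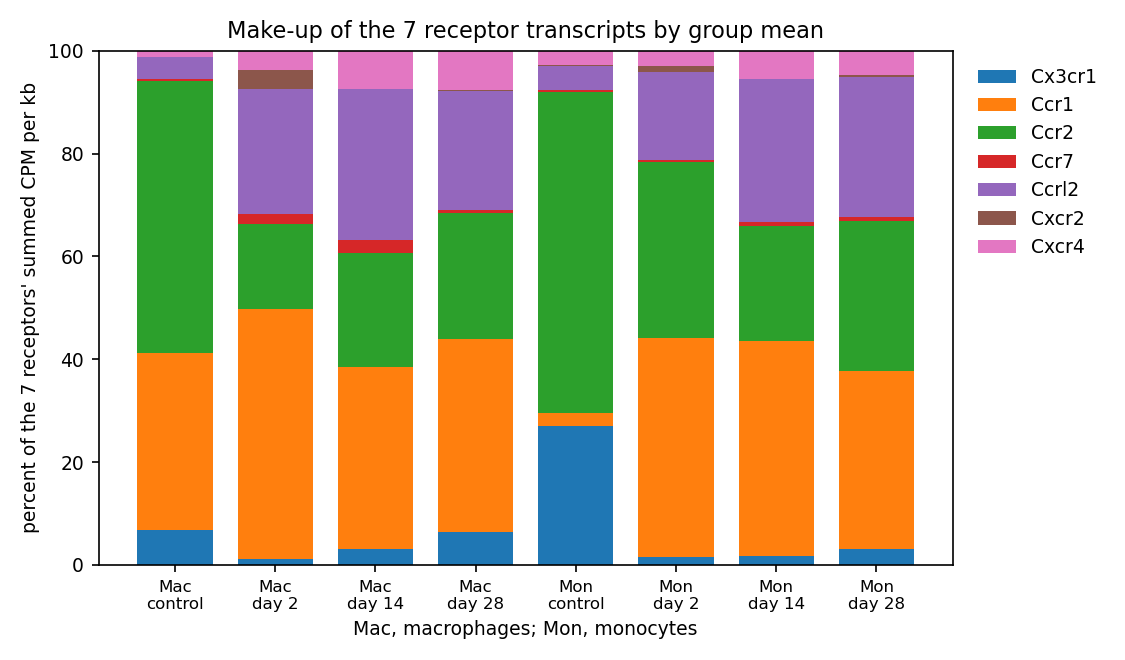
Stacked bars give each receptor's percent of the 7 receptors' summed CPM per kb of exon, from group means, for macrophages (Mac) and monocytes (Mon) in controls and at days 2, 14 and 28. Ccr2 (green) makes up 53.0% and 62.5% of the control bars, and Ccr1 (orange) is the largest segment in all 6 implant bars.

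Which receptors differed between implant and control tissue was asked for each cell type and day. In macrophages 5 of 7 were called at day 2, where 17.2% of all genes tested were called, 2 of 7 at day 14 (8.21% of all genes) and 2 of 7 at day 28 (10.6%). In monocytes 5 of 7 were called at day 2 (27% of all genes), 4 of 7 at day 14 (37.7%) and 4 of 7 at day 28 (18.2%). Ccrl2 and Cxcr4 rose in all 6 of these comparisons, and Ccr1 in 4 of them. Cx3cr1 fell in 4, and Cxcr2 rose at day 2 in both cell types, while Ccr2 and Ccr7 were called in none. The 3 comparisons of a cell type share its control libraries, so they are not independent. The median log2 fold change over all genes was -0.165 for macrophages at day 2 and within 0.1 of 0 in the other 5.

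**Figure D2:**
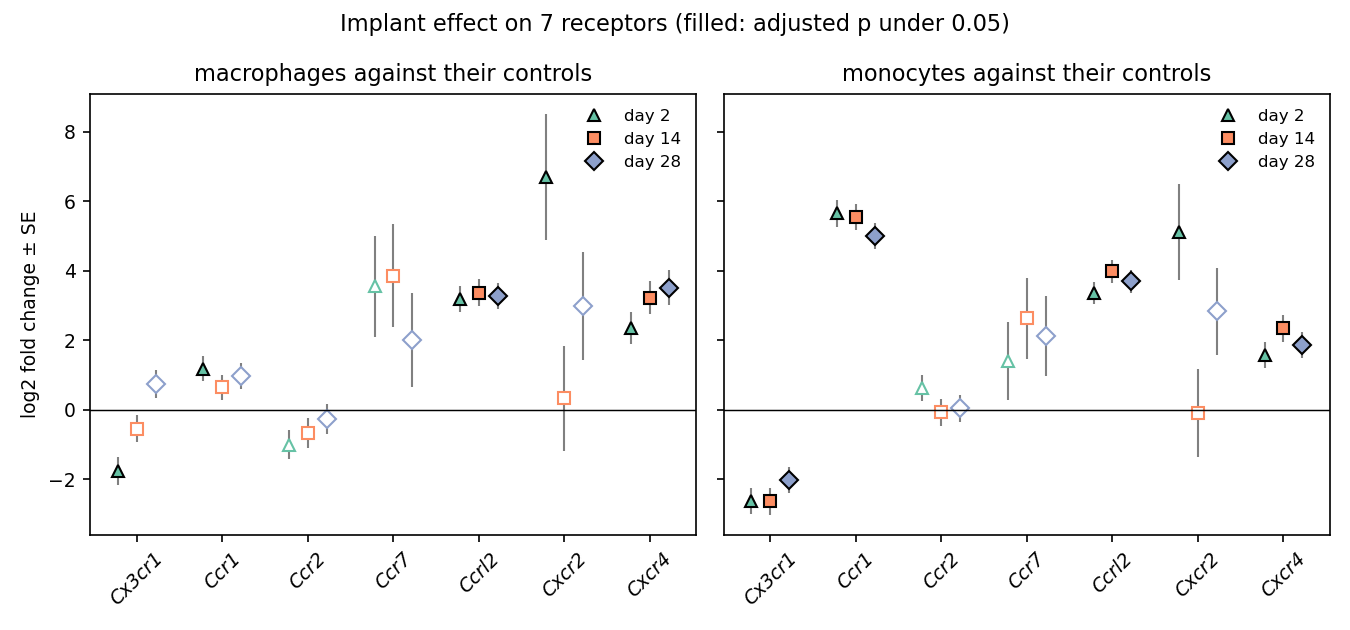
Points give the log2 fold change of each receptor against the control group of the same cell type at days 2, 14 and 28, with bars of 1 SE; filled points have an adjusted p under 0.05. Ccrl2 and Cxcr4 are filled and above 0 at every time in both panels, and Ccr1 in monocytes lies between 5.0 and 5.65.

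Cx3cr1, the gate gene, was far more abundant in control monocytes than in any other group. The control monocyte libraries held 556, 437 and 512 CPM. At day 2 the monocyte libraries held 82.1, 91.4 and 69.7 CPM, at day 14 81.3, 105 and 54.7 CPM, and at day 28 84.1, 189 and 97.8 CPM. All 9 implant libraries of monocytes lay below the lowest control. Several markers of the patrolling, nonclassical subset were lower too: Ace ran from 76.0 to 281 CPM in control monocytes and reached at most 14.2 CPM in any other library, and the limits were 50.1 to 63.9 against 25.2 CPM for Spn, 122 to 176 against 66.6 CPM for Treml4 and 212 to 638 against 127 CPM for Itgal. Nr4a1 and Cd300e of the same list overlapped. The 6 markers summed to between 836 and 1863.5 CPM in control monocytes and to between 727 and 1110, 487 and 680, and 502 and 1232 CPM at days 2, 14 and 28. The part of these markers in the Cx3cr1 result was not tested. Monocyte Cx3cr1 fell by 2.63 ± 0.38 on the log2 scale at day 2 (adjusted p = 4.59e-05), by 2.64 ± 0.38 at day 14 (2.72e-05) and by 2.02 ± 0.37 at day 28 (0.000565), which is 6.18-fold, 6.24-fold and 4.06-fold. These calls held in all 13 alternatives run for each day.

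In macrophages Cx3cr1 was low at day 2 and higher at the later days. The 2 control libraries held 136 and 57.6 CPM, and the day 2 libraries 25.6, 28.6 and 31.0 CPM. Day 14 gave 61.1, 52.4 and 84.9 CPM and day 28 gave 169, 226 and 90.1 CPM. Libraries of day 2, day 14 and day 28 did not overlap between successive days, and the control pair overlapped with the ranges of days 14 and 28. Macrophage Cx3cr1 fell at day 2 (log2 fold change -1.77 ± 0.40, adjusted p = 0.00467), a call that was lost without control replicate A (-1.09, adjusted p = 0.18) and without the 2 libraries with the fewest counts (-1.15, 0.261). Days 14 and 28 gave log2 fold changes of -0.55 ± 0.40 and 0.74 ± 0.41 against control, neither called. In a comparison added after these values were seen, day 28 lay above day 2 by 2.51 ± 0.38 (adjusted p = 0.00109), or 5.69-fold, and this call held in all 13 alternatives. It was the single member called there, where 4.26% of all genes were called; the same comparison in monocytes, where 0.867% of genes were called, gave 0 of 7, also by DESeq2, with none at an unadjusted p under 0.05.

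Ordered by mean, Cx3cr1 ran from control monocytes (501 ± 60.1 CPM, n = 3) through day 28 macrophages (162 ± 68.0), day 28 monocytes (124 ± 56.9), control macrophages (96.9 ± 55.5, n = 2), day 2 monocytes (81.1 ± 10.9), day 14 monocytes (80.4 ± 25.3) and day 14 macrophages (66.2 ± 16.8) to day 2 macrophages (28.4 ± 2.72). Only the first and the last group were separated from their neighbour, and the 6 groups between overlapped in sequence. Since the protein was a gate for every library, these levels are those of cells already chosen for it.

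**Figure D3:**
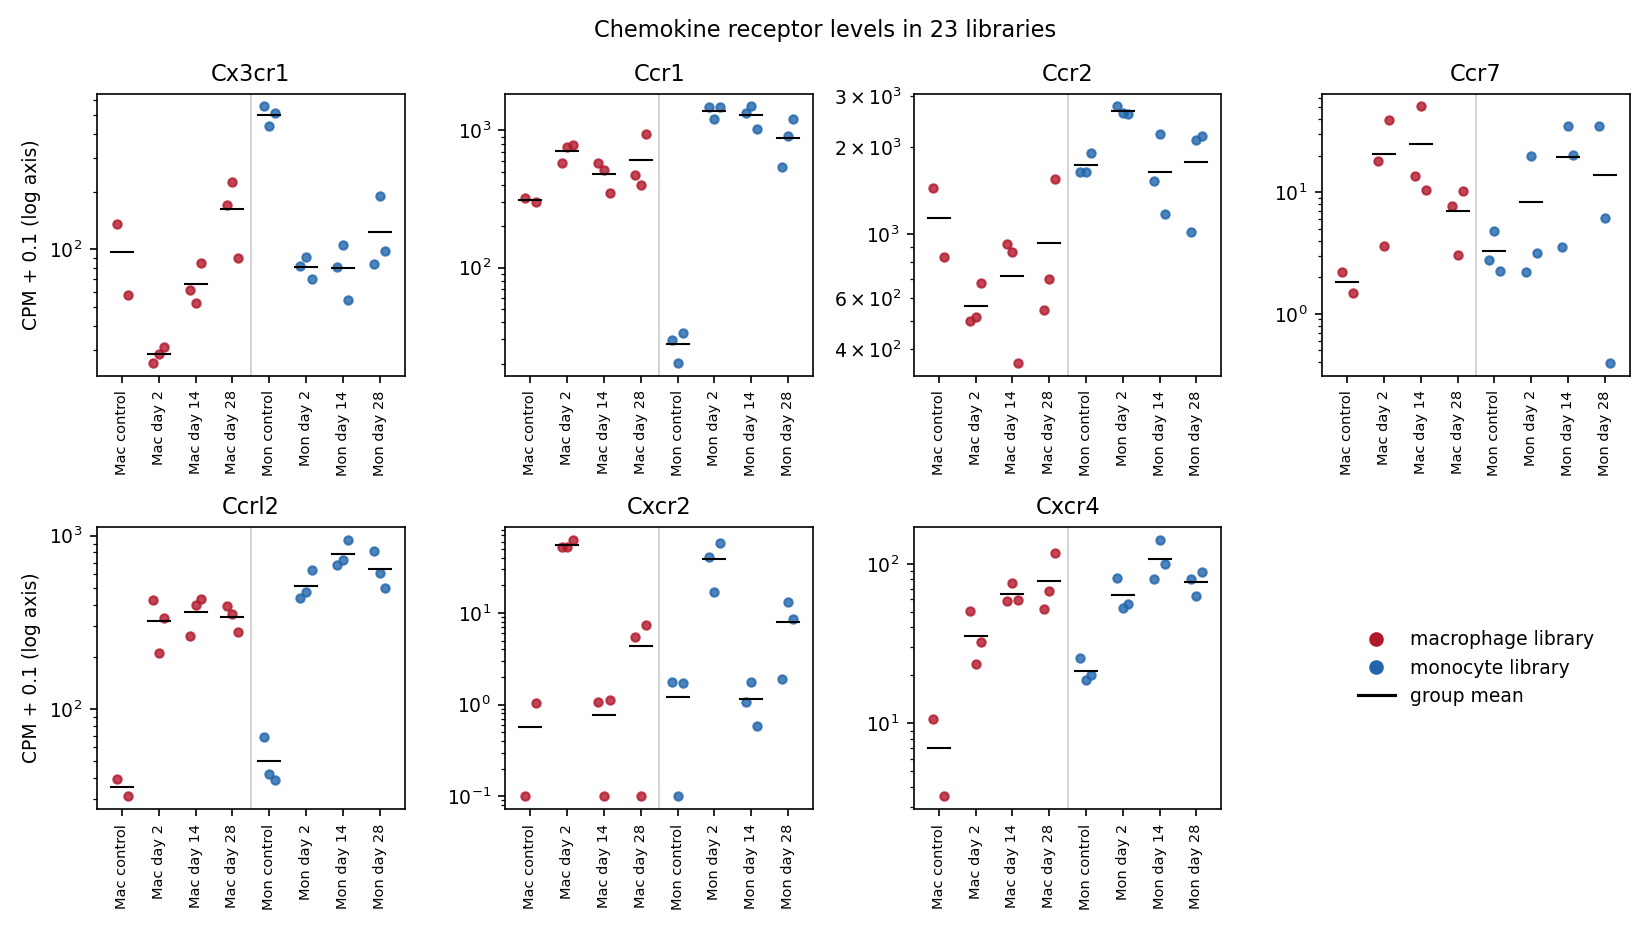
Each panel plots 1 receptor in 23 libraries on a log axis of CPM + 0.1, with macrophage libraries in red, monocyte libraries in blue and a bar at each group mean. Control monocytes are highest for Cx3cr1 (437 to 556 CPM) and lowest for Ccr1 (20.1 to 33.2 CPM), and Ccr7 spreads widely within groups.

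Ccr1, a receptor for Ccl3, Ccl5 and, in mice, Ccl6 and Ccl9, rose in monocytes at every time from a low control level. Control monocytes held 29.5, 20.1 and 33.2 CPM. With the implant the libraries held 1485, 1206 and 1471 CPM at day 2, 1347, 1497 and 1029 CPM at day 14, and 542, 904 and 1207 CPM at day 28. Every implant library thus lay far above the highest control. The rise was 5.65 ± 0.39 on the log2 scale at day 2 (adjusted p = 2.07e-09), 5.55 ± 0.38 at day 14 (1.75e-09) and 5.0 ± 0.37 at day 28 (7.29e-09), or 50.2-fold, 46.7-fold and 32.0-fold. All alternatives kept these 3 calls, with log2 values from 4.59 to 5.76.

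Macrophages carried Ccr1 already without an implant, at 321 and 298 CPM. They held 580.0, 751 and 777 CPM at day 2, 578, 515 and 351 CPM at day 14, and 476, 397 and 946 CPM at day 28. All 9 implant libraries lay above both controls. The day 2 rise was 1.18 ± 0.37 (adjusted p = 0.0318), but it was called in 4 of 12 alternatives, with log2 values from 0.59 with library totals unscaled (adjusted p = 0.296) to 1.23. Leaving out any 1 of the 5 libraries ended the call: without control replicates A and B the adjusted p was 0.209 and 0.175, and without day 2 replicates A, B and C it was 0.0583, 0.0661 and 0.114. At days 14 and 28 the log2 fold changes of 0.64 ± 0.36 and 0.97 ± 0.36 were not called.

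The order of Ccr1 was day 2 monocytes (1387.5 ± 157 CPM), day 14 monocytes (1291 ± 239), day 28 monocytes (884 ± 333), day 2 macrophages (703 ± 107), day 28 macrophages (606 ± 297), day 14 macrophages (481 ± 118), control macrophages (310 ± 16.1, n = 2) and control monocytes (27.6 ± 6.73). Neighbours overlapped among the 6 implant groups, and both control groups were separated from the group above them.

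Because Ccr1 and Cx3cr1 moved in opposite directions in monocytes, their ratio within a library, which does not depend on scaling between libraries, was compared directly. Control monocytes had between 0.0461 and 0.0649 Ccr1 counts per Cx3cr1 count. The ratio lay between 13.2 and 21.1 at day 2, between 14.2 and 18.8 at day 14 and between 4.79 and 12.3 at day 28. Control macrophages had ratios of 2.36 and 5.18, day 2 macrophages between 22.6 and 26.2, day 14 between 4.13 and 9.82 and day 28 between 1.76 and 10.5. Only the control monocytes had more Cx3cr1 than Ccr1 reads.

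**Figure D4:**
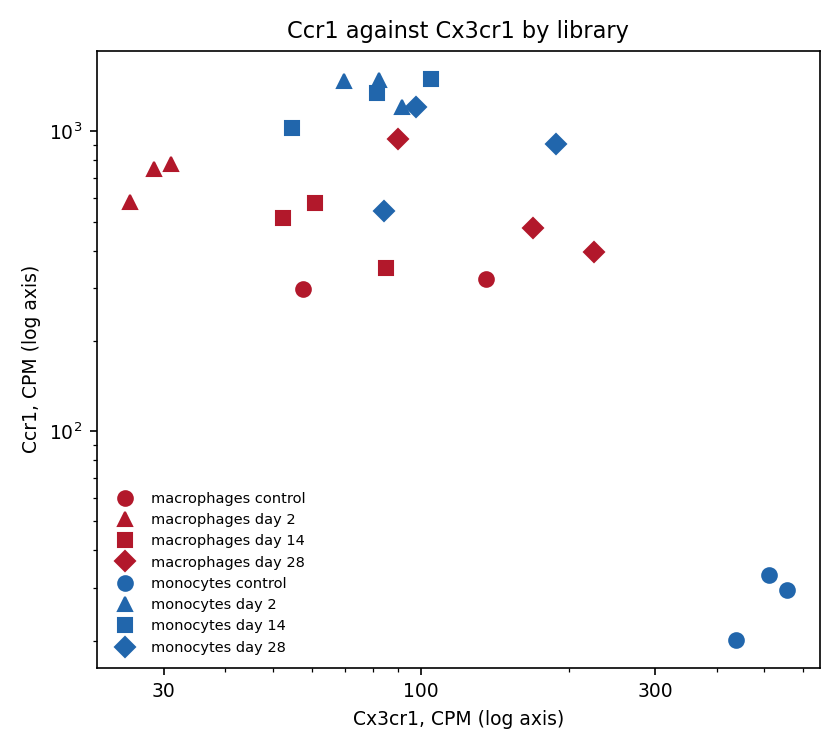
Each point is 1 library, with Cx3cr1 on the x axis and Ccr1 on the y axis, both in CPM on log axes; colour gives the cell type (red macrophages, blue monocytes) and shape the time. The 3 control monocyte libraries sit alone at the lower right (Cx3cr1 437 to 556 CPM, Ccr1 20.1 to 33.2 CPM), and the day 2 macrophages at the left end.

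Ccr2, the receptor for Ccl2, Ccl7 and Ccl12, was called against the controls in neither cell type. Control monocytes held 1644, 1644 and 1917 CPM, and the day 2 monocytes 2771, 2626 and 2609 CPM. Day 14 gave 1526, 2219 and 1176 CPM and day 28 gave 1019, 2114 and 2192 CPM. The day 2 libraries all lay above the other monocyte libraries, with a log2 fold change of 0.62 ± 0.39 (adjusted p = 0.244). In macrophages the controls held 1441 and 835 CPM, followed by 499, 518 and 679 CPM at day 2, 925, 865 and 359 CPM at day 14, and 545, 700.0 and 1559 CPM at day 28. The day 2 macrophage libraries lay below both controls (log2 fold change -1.01 ± 0.43, adjusted p = 0.109); this difference was called with library totals unscaled (-1.63, adjusted p = 0.0217), in a fit of these 2 groups alone (-1.02, 0.0289) and without the count filter.

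By mean, Ccr2 ran from day 2 monocytes (2668 ± 89.0 CPM) to day 28 (1775 ± 656), control (1735 ± 158) and day 14 monocytes (1640.3 ± 531), then to control (1138 ± 428, n = 2), day 28 (934 ± 546), day 14 (716 ± 311) and day 2 macrophages (565 ± 99.1). All 4 monocyte means were above all 4 macrophage means, and after the day 2 monocytes each group overlapped with the next. Per Ccr1 count, control monocytes had between 55.7 and 81.6 Ccr2 counts and day 2 monocytes between 1.77 and 2.18. The same ratio was 2.80 and 4.48 in control macrophages and between 0.689 and 0.874 in day 2 macrophages, the single group with fewer Ccr2 than Ccr1 counts in every library.

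Ccrl2, the atypical chemerin receptor, rose at every time in both cell types. Control macrophages held 39.4 and 31.1 CPM. With an implant they held 425, 210.3 and 334 CPM at day 2, 263, 398 and 433 CPM at day 14, and 392, 354 and 277 CPM at day 28. Each of these 9 libraries exceeded both controls, and the 3 days overlapped with each other. The log2 fold changes were 3.20 ± 0.37 (adjusted p = 7.59e-06), 3.37 ± 0.38 (6.07e-06) and 3.27 ± 0.38 (8.3e-06), or 9.16-fold, 10.3-fold and 9.67-fold.

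Control monocytes held 68.6, 41.9 and 38.7 CPM of Ccrl2, near the macrophage controls. Their implant libraries held 436, 475 and 630.1 CPM at day 2, 677, 726 and 947 CPM at day 14, and 813, 613 and 498 CPM at day 28. Again no implant library overlapped with the controls. The log2 fold changes were 3.37 ± 0.32 at day 2 (adjusted p = 1.91e-07), 3.98 ± 0.33 at day 14 (1.9e-08) and 3.69 ± 0.32 at day 28 (7.02e-08). All 6 Ccrl2 calls held in every alternative, with a highest adjusted p of 0.00562.

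Mean Ccrl2 was highest in day 14 monocytes (783 ± 144 CPM), followed by day 28 (641 ± 159) and day 2 monocytes (514 ± 103), day 14 (365 ± 89.8), day 28 (341 ± 58.6) and day 2 macrophages (323 ± 108), control monocytes (49.7 ± 16.4) and control macrophages (35.3 ± 5.88, n = 2). Breaks without overlap lay between the monocyte and macrophage implant groups and between these and the controls.

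Cxcr4, the Cxcl12 receptor, also rose at every time in both cell types, from low control levels. Control macrophages held 10.5 and 3.39 CPM. Implant macrophages held 50.3, 23.3 and 32.1 CPM at day 2, 58.2, 75.3 and 59.5 CPM at day 14, and 51.8, 67.4 and 117 CPM at day 28. All 9 exceeded the controls. The log2 fold changes were 2.36 ± 0.46 (adjusted p = 0.0015), 3.23 ± 0.48 (0.000166) and 3.51 ± 0.49 (7.04e-05). Without control replicate A, which had the higher of the 2 control values, the rises were larger, and no alternative ended a call (highest adjusted p 0.0416).

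Monocyte controls held 25.6, 18.5 and 19.9 CPM of Cxcr4. The implant libraries held 81.4, 52.7 and 56.2 CPM at day 2, 80.5, 142 and 100.5 CPM at day 14, and 79.8, 63.0 and 89.3 CPM at day 28. No implant library fell within the control range. The rises were 1.57 ± 0.38 (adjusted p = 0.00489), 2.33 ± 0.39 (0.000126) and 1.86 ± 0.38 (0.00165), with a highest adjusted p of 0.0499 over the alternatives.

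The order of Cxcr4 was day 14 monocytes (108 ± 31.1 CPM), day 28 macrophages (78.6 ± 33.8), day 28 monocytes (77.4 ± 13.3), day 14 macrophages (64.3 ± 9.55), day 2 monocytes (63.4 ± 15.7), day 2 macrophages (35.3 ± 13.7), control monocytes (21.3 ± 3.77) and control macrophages (6.95 ± 5.04, n = 2). Overlap between neighbours was absent between the day 2 groups and between the controls. Markers of endothelium also differed between the groups as a sum. The 4 of them summed to 3.72 and 4.05 CPM in control macrophages and to between 11.5 and 23.01, 4.396 and 26.8, and 14.3 and 43.0 CPM at days 2, 14 and 28. In monocytes they summed to between 3.61 and 14.1 CPM in controls and to between 10.01 and 21.2, 25.3 and 47.9, and 33.4 and 42.2 CPM at these days, with the ranges of control and day 2 overlapping, and at least 2 of 4 were detected in every library. Pecam1 and Kdr reached 30.9 and 36.4 CPM, and Cdh5 at most 1.27 CPM in any library. Tie1 reached 2.99 CPM in control monocytes and 0.334, 0.0539 and 1.92 CPM in monocytes at days 2, 14 and 28. In macrophages Tie1 reached 0.300 CPM in controls and 0.725, 0.311 and 2.15 CPM at these days. Over 23 libraries, which share groups and depth, r with the sum of the 4 was 0.781 for Cxcr4 and 0.752 for Ccrl2. For both receptors this was the largest r with any of the marker lists. Cxcr4 also had r of -0.563 with the B cell and 0.522 with the nonclassical monocyte sum. Ccrl2 had -0.641 with the dendritic and -0.64 with the B cell sum. The part of the endothelium markers in the rises of Cxcr4 and Ccrl2 was not tested.

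Cxcr2, the neutrophil CXC chemokine receptor, was present mainly at day 2. Day 2 macrophages held 51.6, 52.4 and 62.6 CPM and day 2 monocytes 40.4, 16.8 and 58.3 CPM. Control macrophages held 0 and 0.929 CPM and control monocytes 1.68, 0 and 1.61 CPM. The day 14 libraries held 0.962, 0 and 1.03 CPM in macrophages and 0.969, 1.67 and 0.481 CPM in monocytes, and the day 28 libraries 5.39, 0 and 7.23 CPM and 1.80, 13.2 and 8.56 CPM. Day 2 libraries of both cell types thus lay above all others. By read sampling alone, a count of 0 allows up to 3 counts, at most 0.196 CPM in the libraries concerned. This limit leaves out the spread between libraries: control monocyte replicates A, B and C held 77, 0 and 68 counts.

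Against controls Cxcr2 rose at day 2 by 6.71 ± 1.82 on the log2 scale in macrophages (adjusted p = 0.0152) and by 5.12 ± 1.38 in monocytes (0.0097). The macrophage call was lost without control replicate A, the library at 0 (5.82, adjusted p = 0.163), and without the 2 libraries with the fewest counts (0.243). Without control replicate B, which leaves 1 control at 0 counts, the fitted value was 13.3 (0.0422), which depends on the prior count and is no bound, while the monocyte call held in all 13 alternatives. The changes at day 14, of 0.32 ± 1.52 and -0.09 ± 1.26, and at day 28, of 2.98 ± 1.55 and 2.83 ± 1.26, were not called. Mean Cxcr2 ran from day 2 macrophages (55.5 ± 6.10 CPM) and day 2 monocytes (38.5 ± 20.8) to day 28 monocytes (7.84 ± 5.72), day 28 macrophages (4.21 ± 3.76) and to the other groups, with means between 0.465 and 1.10 CPM; the break without overlap lay after the day 2 groups.

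In macrophages the sum of the neutrophil markers was higher with Cxcr2 at day 2, though not every marker was, and in monocytes only some were. The 10 markers summed to between 2986 and 6600.5 CPM in day 2 macrophages, with between 8 and 10 of them detected, against 3.40 and 10.6 CPM in the controls, where Ly6g and Elane were at 0. In day 2 macrophages S100a8 ran from 1460.5 to 3157 CPM and S100a9 from 1253.5 to 2897 CPM. Their control macrophage values reached 2.64 and 2.31 CPM. Mpo was not higher, with at most 0.0653 CPM in control and 0.0412 CPM in day 2 macrophages. Elane reached 0.379 CPM at day 2, and the Camp ranges overlapped (0.0599 to 0.261 against 0.123 to 2.17 CPM). In macrophages the sum was between 90.2 and 311 CPM at day 14 and between 58.9 and 283 CPM at day 28, where Ly6g was at 0 again. In monocytes it was between 2370.4 and 3966 CPM in controls, between 2057.5 and 4969 CPM at day 2, between 232 and 801 CPM at day 14, where Camp was at 0, and between 286 and 425 CPM at day 28. Ly6g, the defining neutrophil surface gene, ran from 9.30 to 20.6 CPM in day 2 macrophages and from 4.0 to 9.12 CPM in day 2 monocytes, and reached at most 1.49 CPM elsewhere. Retnlg, a neutrophil resistin-like gene, ran from 167 to 414 and from 85.9 to 317 CPM in these 2 groups and stayed at or under 9.69 CPM elsewhere. Between control and day 2 the summed ranges of monocytes overlapped while single markers shifted. Ngp went from between 780 and 1394 CPM to between 3.30 and 12.4 CPM, and S100a8 from between 411 and 804 CPM to between 865 and 2345 CPM. The control sum was high through Ngp, S100a8, S100a9 (351 to 709 CPM), Ltf (343 to 447 CPM) and Camp (220 to 413 CPM), beside little Cxcr2. The part of neutrophil RNA in the Cxcr2 result was not tested.

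**Figure D5:**
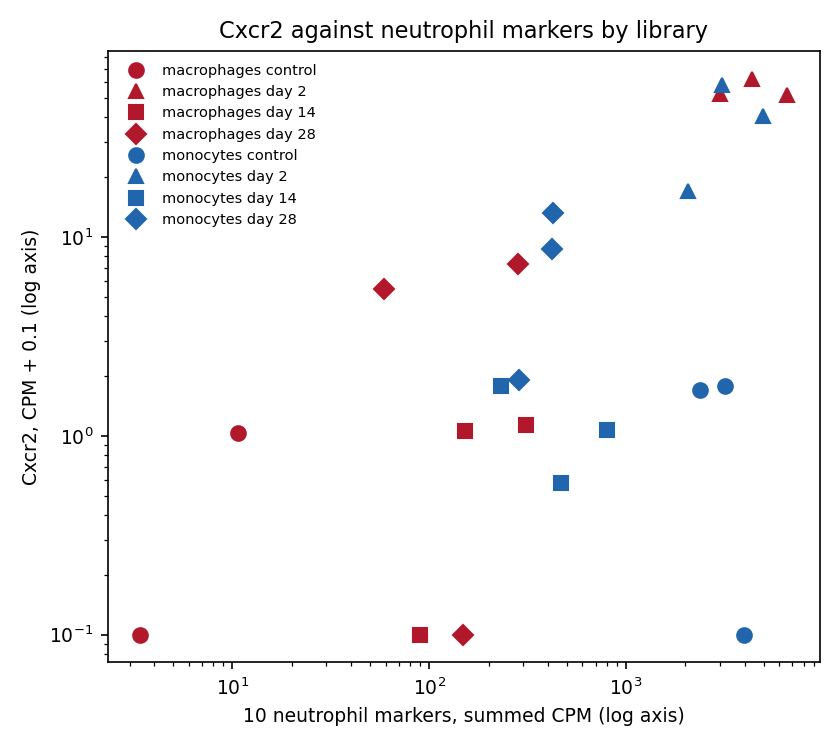
Each point is 1 library, with the summed CPM of 10 neutrophil markers on the x axis and Cxcr2 (CPM + 0.1) on the y axis, both on log axes; colour gives the cell type and shape the time. The 6 day 2 libraries (triangles) sit at the upper right, and the control monocytes (blue circles) reach similar marker sums with Cxcr2 at or under 1.68 CPM.

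Ccr7, the lymph node homing receptor of mature dendritic cells and of T cells, varied widely within groups. Control libraries held 2.09 and 1.38 CPM in macrophages and 2.66, 4.67 and 2.13 CPM in monocytes. Macrophages with an implant held 18.0, 3.54 and 39.5 CPM at day 2, 13.4, 50.8 and 10.4 CPM at day 14, and 7.57, 2.93 and 10.2 CPM at day 28. Each of these 9 libraries was above both controls. Monocytes held 2.12, 19.6 and 3.06 CPM at day 2, 3.46, 34.8 and 20.1 CPM at day 14, and 34.8, 6.00 and 0.295 CPM at day 28, so that the day 28 libraries alone differed 118-fold.

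In the edgeR fit of all libraries with the count filter, none of the 6 implant comparisons called Ccr7. The log2 fold changes were 3.55 ± 1.46, 3.85 ± 1.48 and 2.00 ± 1.36 in macrophages and 1.39 ± 1.12, 2.63 ± 1.16 and 2.12 ± 1.14 in monocytes, with adjusted p between 0.0798 and 0.391. DESeq2 called it in macrophages at day 2 (adjusted p = 0.0133) and day 14 (0.0115) and in monocytes at day 14 (0.0252), and edgeR fitted to only the groups compared called it in the same 3 (0.023, 0.0413 and 0.0163). Without the count filter edgeR called it in all 6, with adjusted p between 2.5e-08 and 0.0374. By mean, the order was day 14 (24.9 ± 22.5 CPM) and day 2 macrophages (20.3 ± 18.1), day 14 (19.5 ± 15.7), day 28 (13.7 ± 18.5) and day 2 monocytes (8.27 ± 9.84), day 28 macrophages (6.90 ± 3.68), control monocytes (3.15 ± 1.34) and control macrophages (1.73 ± 0.503, n = 2), and only the 2 control groups did not overlap as neighbours.

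The sums of dendritic cell and of T cell markers were highest in some of the libraries with the most Ccr7. In 5 of 8 groups the library with the most Ccr7 also had the largest sum of 9 dendritic cell markers, and in 5 of 8 the largest sum of 6 T cell markers; a group holds only 2 or 3 libraries. Over all 23 libraries, which share groups and depth, Pearson r with Ccr7 was 0.057 for the dendritic and 0.493 for the T cell sum. Day 2 macrophage replicate C, at 39.5 CPM of Ccr7, had 140 CPM of dendritic and 148 CPM of T cell markers. Over all groups the dendritic markers summed to between 13.4 and 147 CPM in macrophages and between 14.1 and 495 CPM in monocytes, with between 4 and 9 of the 9 detected. Clec9a and Il4i1 were at 0 in day 2 macrophages and Il4i1 in day 14 monocytes. The T cell markers summed to between 6.34 and 148 CPM in macrophages and between 3.75 and 139 CPM in monocytes, with between 2 and 6 of the 6 detected and none at 0 throughout a group. Their part in the Ccr7 values was not tested.

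Between successive implant days no receptor was called. Between days 2 and 14 the count of called members was 0 of 7 in macrophages (0.474% of all genes) and 0 of 7 in monocytes (0.726%), and between days 14 and 28 it was 0 of 7 in macrophages (0.00615%) and 0 of 7 in monocytes (0.72%). At an unadjusted p under 0.05 stood Cx3cr1, Cxcr2 and Cxcr4 in the first, Ccrl2 and Cxcr2 in the second, Cx3cr1 in the third and Cxcr2 in the fourth of these comparisons. Cxcr2 gave the largest estimates, -6.39 ± 1.49 in macrophages (adjusted p = 0.0565) and -5.21 ± 1.41 in monocytes (0.102) between days 2 and 14. DESeq2 called Cxcr2 in both of these (adjusted p = 0.00609 and 0.0349) and no receptor between days 14 and 28.

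Macrophages and monocytes of the same time were then compared directly. Without an implant 3 of 7 receptors were called, where 12.5% of all genes were called: macrophages had less Cx3cr1 (log2 fold change -2.37 ± 0.44, adjusted p = 0.000837) and Cxcr4 (-1.63 ± 0.45, 0.019) and more Ccr1 (3.49 ± 0.37, 1.13e-06). The Cxcr4 call was lost without control macrophage replicate B (-1.06, adjusted p = 0.254), without control monocyte replicate A (-1.49, 0.0566) and in a fit of the control groups alone (-1.65, 0.0801).

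At day 2, 2 of 7 were called (3.42% of all genes), with Ccr2 4.72-fold lower in macrophages (-2.24 ± 0.40, adjusted p = 0.00312) and Cx3cr1 lower by 1.51 ± 0.37 on the log2 scale (0.025). The Ccr2 call held in all 13 alternatives. The Cx3cr1 call did not: it was lost without day 2 macrophage replicates A, B and C (adjusted p = 0.107, 0.0921 and 0.0648) and without day 2 monocyte replicates A and B (0.0579 and 0.0805), and without the 2 libraries with the fewest counts (0.0557).

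At day 14, 2 of 7 were called (9.37%), with Ccr1 2.68-fold lower in macrophages (-1.42 ± 0.32, adjusted p = 0.0103) and Ccrl2 2.15-fold lower (-1.10 ± 0.29, 0.0238). Ccr1 held in all 13 alternatives and Ccrl2 in 8, failing without day 14 macrophage replicates A and B (adjusted p = 0.101 and 0.0599) and monocyte replicate C (0.113) with library totals unscaled (0.0515) and without the 2 libraries with the fewest counts (0.0512). At day 28, 0 of 7 were called (2.52%), with Ccr2 (-0.93 ± 0.39, adjusted p = 0.215) and Ccrl2 (-0.91 ± 0.29, 0.102) at an unadjusted p under 0.05. DESeq2 called Ccrl2 there (0.0377), and without day 28 macrophage replicate C, which had the most Ccr2, Ccr2 was called (-1.50, 0.0274).

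Whether the implant changed a receptor differently in the 2 cell types was tested as an interaction, the macrophage minus the monocyte log2 change. At day 2, 1 of 7 was called (3.78% of all genes), at day 14 2 of 7 (7.55%) and at day 28 2 of 7 (5.77%). Ccr1 was called at all 3 times, with -4.47 ± 0.48, -4.91 ± 0.49 and -4.03 ± 0.48, and Cx3cr1 at day 14 (2.09 ± 0.55, adjusted p = 0.025) and day 28 (2.76 ± 0.56, 0.00388). For Ccr1, control levels were 11.2-fold higher in macrophages, and implant levels between 1.46-fold and 2.68-fold lower. The implant difference was called at day 14 and not at day 2 (-0.98 on the log2 scale) or day 28 (-0.55). The day 14 Cx3cr1 call was lost without control macrophage replicate B (1.71, adjusted p = 0.116) and without day 14 monocyte replicate C (1.94, 0.052). For Ccrl2 the interaction was -0.17 ± 0.44, -0.61 ± 0.44 and -0.41 ± 0.44, and none was called.

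How the 7 receptors varied with each other is given as a description. Over 23 libraries, which share cell types, times and depth, Pearson r of log2 CPM was 0.869 between Ccrl2 and Cxcr4, 0.78 between Ccr1 and Ccrl2 and -0.709 between Cx3cr1 and Ccr1. Ccr2 had r between -0.287 and 0.396 with the other members. Among 7013 genes averaging 10 CPM or more, those like Ccr1 included Ier3 (r = 0.959) and Ripk3 (0.956). Nearest to Ccrl2 were Tgif1 (0.969), Slc15a3 (0.965) and Il1rn (0.964), and nearest to Cxcr4 Slc7a11 (0.92), Entpd7 (0.92) and B3gnt5 (0.915). For Cx3cr1 they were Mbp (0.914), Pitpnm1 (0.913) and Tifab (0.893), and for Ccr2 B4galt3 (0.868), Tmem173 (0.861) and Gdap2 (0.843). Cxcr2 was closest to G0s2 (0.813), Retnlg (0.778) and Il1f9 (0.72), and Ccr7 had no gene above Nsrp1 (0.676), followed by Rilpl2 and Leng1 (both 0.642). These values describe likeness over the libraries and carry no test.

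Ligands of the 7 receptors were examined as a list of 19 genes, of which 17 passed the count filter; Ccl19 reached 3 counts and Ccl21a 0 in its highest library. In monocytes 15 of 17 rose at day 2, 16 at day 14 and 14 at day 28, and none fell, beside 27%, 37.7% and 18.2% of all genes called in either direction. Their median log2 fold changes were 5.97, 6.71 and 6.23, against 0, -0.03 and 0 over all genes. In macrophages 10 of 17 rose and Cxcl12 fell at day 2, 5 rose at day 14, and 5 rose while Ccl8 fell at day 28, beside 17.2%, 8.21% and 10.6% of all genes, with medians of 2.41, 1.11 and 0.35 against -0.165, -0.079 and -0.035.

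Among the 4 most abundant ligands, Cxcl2, a Cxcr2 ligand, averaged 9.68 ± 3.01 CPM in control monocytes and 1109 ± 372 at day 2 (log2 fold change 6.84 ± 0.46, adjusted p = 1.84e-09), and 103 ± 33.3 CPM in control and 2196 ± 1016 CPM in day 2 macrophages (4.41 ± 0.49, 3.6e-06). Ccl6 and Ccl9, the mouse Ccr1 ligands, rose at day 2 in both cell types; in macrophages Ccl6 went from 5460.4 ± 1532 to 18955 ± 4416.5 CPM (1.80 ± 0.35, adjusted p = 0.00143) and Ccl9 from 1189 ± 155 to 4761 ± 497 CPM (2.00 ± 0.28, 5.16e-05). Ccl8, a chemokine of tissue macrophages, averaged 1955 ± 1159 CPM in control macrophages and 0.292 ± 0.0888 CPM in control monocytes (12.7 ± 0.99, adjusted p = 2.23e-08). Cxcl12 and Rarres2, which encodes chemerin, were among the monocyte rises at all 3 days, and both are known products of fibroblasts. The 6 fibroblast markers summed to between 0.0436 and 0.142 CPM in control monocytes, with Col1a1, Pdgfra and Lum at 0, to between 6.35 and 111 CPM at day 2, between 356 and 769.5 CPM at day 14 and between 224 and 512 CPM at day 28. In macrophages they summed to 168 and 176 CPM in controls and to between 1.52 and 32.9 CPM at day 2, where Cxcl12 fell, and to between 13.2 and 54.9 CPM and between 15.7 and 95.7 CPM at days 14 and 28. Their part in these changes was not tested.

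Of 17 other chemokine receptors 15 were tested; Ccr4 and Ackr4 had at most 2 and 14 counts in a library. In monocytes 5, 3 and 4 of 15 rose at days 2, 14 and 28 and none fell, beside 27%, 37.7% and 18.2% of all genes called in either direction, and these counts are read as no result about the list. They came with medians of 2.21, 1.56 and 2.15 against 0, -0.03 and 0. In macrophages 1 rose and 1 fell at day 2, 1 rose at day 14, and 2 rose and 1 fell at day 28, beside 17.2%, 8.21% and 10.6% of all genes, with medians of 0.865, 0.15 and 0 against -0.165, -0.079 and -0.035. Ackr3, the atypical second receptor of Cxcl12, rose in all 6 comparisons, from 1.82 ± 1.77 CPM in control to 137 ± 15.7 CPM in day 2 macrophages (6.30 ± 1.10, adjusted p = 0.000563). Cmklr1, the signalling chemerin receptor, rose in monocytes from 2.50 ± 0.51 to 15.1 ± 4.48 CPM at day 2 (2.60 ± 0.35, 1.9e-05). Cxcr3, the receptor of interferon-induced CXC chemokines, fell in macrophages at day 2 from 38.7 ± 18.3 to 0.929 ± 0.820 CPM (-5.41 ± 0.84, 0.000183).

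Genes that transmit or end the signal of these receptors moved in both directions. Of 22 genes, all tested, 4 rose and 5 fell in macrophages at day 2, 3 rose and 4 fell at day 14, and 3 rose and 3 fell at day 28, beside 17.2%, 8.21% and 10.6% of all genes called. In monocytes 4 rose and 8 fell at day 2, 3 rose and 11 fell at day 14, and 3 rose and 6 fell at day 28, beside 27%, 37.7% and 18.2% of all genes. Median log2 fold changes were -0.06, -0.02 and -0.06 in macrophages and -0.63, -0.85 and -0.47 in monocytes, with the medians over all genes as given above. Grk6, a kinase that desensitizes chemokine receptors, was among the genes that fell in all 6 comparisons, and Rgs1 and Rgs16, which shorten G protein signals, among those that rose in all 6. Rgs1 went from 10.3 ± 3.26 CPM in control monocytes to 668 ± 343 CPM at day 14 (6.02 ± 0.64, adjusted p = 5.73e-07). Rgs2 rose in macrophages at day 2 from 182.5 ± 17.9 to 895 ± 347 CPM (2.29 ± 0.39, 0.000387) and was not called in monocytes against control at any day. Gnai2, an inhibitory G protein subunit, fell in monocytes from 1229 ± 2.91 CPM to 286 ± 129.8 CPM at day 2 (-2.10 ± 0.68, 0.0276) and to 226 ± 83.4 CPM at day 14 (-2.44 ± 0.69, 0.00921), and at day 28 it averaged 1027 ± 368 CPM and was not called (-0.26 ± 0.66, 0.834). Rac2, a small GTPase of myeloid migration, rose in monocytes at day 2 alone among the 6 comparisons (0.63 ± 0.22, 0.0406).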

How the data were processed

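RNA of 23 sorted samples was amplified with SMART-Seq v4 and sequenced as single reads, per the labels' protocols. The authors deposited raw counts per gene; STAR 2.4.1d, featureCounts of Subread 1.5.1 and GRCm38 are named in the submitters' processing notes, and no source used here gives the annotation release, strand setting or handling of multi-mapped reads. Entries without a symbol in the GENCODE M21 annotation held 0.111% of counts. The counts of all 23 libraries were fitted together in edgeR 4.0.16 (R 4.3.3, limma 3.58.1) with TMM factors, filterByExpr by group and the robust quasi-likelihood test, prior count 0.125, and Benjamini-Hochberg adjustment over 16260 genes. The 17 planned comparisons shared this fit, and 2 more (day 28 against day 2) were added after values were seen. Script steps were tested on simulated data. P-values of this fit weigh a difference between groups against a spread estimated from all 23 libraries together.

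The members and lists were chosen with earlier results of these data known. Named genes were the 7 members, the 4 most abundant genes of each of 3 lists, and the 3 genes most like each member (log2 CPM, prior count 2, mean of at least 10 CPM). A gene that these rules also name is not reported here. Replicate letters, whose meaning the labels do not give, were not taken as pairs: same-letter deviations correlated between -0.123 and 0.104 in comparisons with 3 pairs, and between -0.131 and 0.237 in those with 2, including 0.143 and 0.216 between the control cell types. Alternatives were DESeq2 1.42.0, its size factors, no count filter, fits of only the groups compared, a prior count of 2, the replicate block and leaving out each library, and, added later, unscaled library totals and leaving out the 2 libraries with the fewest counts, control macrophage replicate A (10898529) and day 2 macrophage replicate C (9303153). No 2 libraries held identical counts.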

Additional observations from a re-analysis of the deposited data

Results flagged for a closer look

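The implant effect differed between the cell types in 5 cases, each by the test of the interaction in edgeR (macrophage minus monocyte log2 change, n = 2 control macrophage libraries and n = 3 in the other groups). For Ccr1 the difference was -4.47 at day 2 (SE 0.48, adjusted p = 8.86e-06), -4.91 at day 14 (SE 0.49, 2.25e-06) and -4.03 at day 28 (SE 0.48, 2.51e-05), and all 18 alternatives run at each day kept the call. For Cx3cr1 it was 2.09 at day 14 (SE 0.55, 0.025) and 2.76 at day 28 (SE 0.56, 0.00388). The day 28 call of Cx3cr1 held in 18 of 18 alternatives and the day 14 call in 16 of 18. All 5 rest on the same control monocyte libraries, which stood apart in granule and macrophage genes; the part of that difference was not tested.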

How the results depend on the processing

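Of 1939 values of single receptors under the alternatives, 1864 stayed on their side of the threshold, 28 lost a call, 47 gained one and 0 called values changed sign, while 73 uncalled values did. These values include the prior count of 2, which moves the fitted fold change alone and cannot change a call. That setting is left out of the alternatives counted for each single call. Counts of called receptors that moved by over 1.5 times were as follows, and the cause was not tested. Without the count filter the count was 3 for the interaction at day 2 (reported 1), 1 for macrophages against monocytes at day 28 (0), 4 for macrophages at day 28 against control (2), 2, 3 and 4 for macrophage days 14 against 2 (0), 28 against 14 (0) and 28 against 2 (1), and 1 for each of the 3 monocyte day comparisons (0). DESeq2 gave 1 for macrophages against monocytes at day 28, for macrophages at day 14 against 2 and for monocytes at day 14 against 2, and 2 for macrophages at day 28 against 2. Fitting only the groups compared gave 2 for the interaction at day 2 and 1 for day 14 against 2 in either cell type. Unscaled totals gave 1 for macrophages against monocytes at day 14 (2). Leaving out the 2 libraries with the fewest counts gave 1 at day 14 and 1 at day 2 for the same comparison (2 each), and 2 for macrophages at day 2 against control (5). Leaving out 1 library gave between 2 and 4 for macrophages at day 2 against control, between 1 and 2 for macrophages against monocytes at days 2 and 14 and for the interaction at day 14, and between 0 and 1 for macrophages against monocytes at day 28. With the replicate block, whose letters were not taken as pairs, macrophages at day 2 gave 4, with Ccr1 at an adjusted p of 0.0589. Smaller moves went both ways. Macrophages at day 2 against control gave 6 by DESeq2 and 7 both without the filter and with only the groups compared. Each of these 3 settings gave 3 for macrophages (2) and 5 for monocytes (4) at day 14 against control. Without the filter monocytes at days 2 and 28 gave 6 each (5 and 4). The interaction at day 28 gave 3 in 3 settings (2), with Cxcr4 added. The control cell types gave 2 in 3 settings (3), and macrophages against monocytes at days 2 and 14 gave 3 in 3 and in 2 settings (2). Control macrophages have n = 2, so leaving 1 out assumes that the lone library varies like the other groups. Cxcr2 had 0 counts in 1 library of 4 groups. These were control macrophage replicate A (10898529 counts in all), day 14 macrophage replicate B (25230923), day 28 macrophage replicate B (28193280) and control monocyte replicate B (30402667). The median library held 24722229 counts, and the cause of these zeros was not tested.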
